A study of Mus musculus with 8 samples.

Results

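Kidneys move sugar, phosphate, bicarbonate, salt and metals across the tubule wall through membrane proteins of the solute carrier (Slc) families, and the genes of these families were compared between kidneys of cisplatin-treated and control mice. Members were the rows of the gene count table with 8 counts whose symbol begins with Slc2a, 4a, 5a, 8a, 9a, 11a, 12a, 13a, 20a, 23a, 24a, 26a, 28a, 29a, 30a, 34a, 39a, 40a or 41a and a digit. This gave 68 genes of the 35880 in the usable rows. Of these, 66 are protein-coding. The other two are Slc13a2os, an RNA antisense to Slc13a2, and the pseudogene Slc2a4rg-ps. A further 61 genes of these families stand in rows with 10 values, which could not be tied to the libraries and were not used here. Slc2a2, Slc5a1, Slc34a2, Slc34a3, Slc20a1, Slc26a6 and Slc13a2 are among them, as are Slc11a1, Slc11a2 and Slc40a1, so the iron carriers of the Slc11 and Slc40 families were not analysed here.

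The series holds 8 poly(A) RNA libraries of whole kidney from wild-type mice, 4 control (numbers 1, 2, 3 and 5) and 4 cisplatin (numbers 1, 3, 4 and 6). The study describes male C57/BL6J mice given 0.9% saline, or cisplatin at 23 mg/kg, by intraperitoneal injection, with kidneys taken 72 h later. Cisplatin is a platinum chemotherapy drug that is taken up by the proximal tubule and injures it. One kidney library per mouse was taken as the replicate.

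Most glucose, phosphate, sulfate and bicarbonate that the glomerulus filters is reclaimed in the proximal tubule. There, sodium-coupled carriers on the brush border bring solute in, and carriers on the blood side let it out. Further along, the thick ascending limb and the distal convoluted tubule each have their own sodium-chloride cotransporter, and intercalated cells exchange chloride for bicarbonate. Zinc enters the cytosol through the Slc39 (ZIP) family and leaves it through the Slc30 (ZnT) family.

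Promoter sequence is shown for 3 members that the comparison turns on. Slc34a1 and Slc39a5 fell furthest among the phosphate and zinc genes, and Slc2a1 is the most abundant sugar transporter that rose. Each window holds 250 bases before and 50 after a RefSeq start in GRCm38.p6, and 50 of the 68 members had such a window. Capitals mark, on either strand, the HNF1 half-site GTTAAT and the HNF4 core AAAGTCC in Slc34a1, and the metal response element core, TGCACNC or TGCGCNC, in the other two.
Slc34a1, chr13:55399398-55399697, plus strand: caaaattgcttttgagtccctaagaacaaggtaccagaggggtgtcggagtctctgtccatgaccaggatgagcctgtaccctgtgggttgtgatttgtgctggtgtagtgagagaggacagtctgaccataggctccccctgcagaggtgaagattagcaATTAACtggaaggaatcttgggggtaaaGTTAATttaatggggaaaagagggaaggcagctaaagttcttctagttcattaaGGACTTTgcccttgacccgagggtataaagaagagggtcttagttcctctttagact
Slc39a5, chr10:128401175-128401474, minus strand: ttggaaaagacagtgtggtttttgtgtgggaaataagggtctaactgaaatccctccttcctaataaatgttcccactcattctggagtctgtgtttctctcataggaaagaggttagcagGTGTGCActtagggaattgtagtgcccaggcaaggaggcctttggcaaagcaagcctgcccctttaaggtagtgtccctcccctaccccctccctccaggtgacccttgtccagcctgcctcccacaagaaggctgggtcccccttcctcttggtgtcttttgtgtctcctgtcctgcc
Slc2a1, chr4:119108495-119108794, plus strand: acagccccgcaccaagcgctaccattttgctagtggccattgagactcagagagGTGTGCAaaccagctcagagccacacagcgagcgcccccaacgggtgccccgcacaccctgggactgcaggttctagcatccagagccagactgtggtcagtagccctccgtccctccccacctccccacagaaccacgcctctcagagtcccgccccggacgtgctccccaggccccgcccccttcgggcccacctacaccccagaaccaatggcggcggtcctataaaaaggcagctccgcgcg
The Slc34a1 window lies 1461 bases from the first base that the count table gives for the gene, and the Slc39a5 window is 1 of 2 for that gene. HNF1 and HNF4 are transcription factors of the proximal tubule, and the metal response element is bound by the zinc sensor Mtf1. The half-site GTTAAT stood in a window of 4 of the 17 members called lower that had one (Slc28a2, Slc34a1, Slc39a5 in its other window, and Slc5a4a), in 1 of 5 called higher (Slc23a3) and in 1 of 24 not called, against 8.24% of all 27025 genes with a window. AAAGTCC stood in 1, 0 and 2 members of these groups, against 4.84% of genes. The metal response core stood in 8, 2 and 9, against 28.2% of genes. These motifs were picked from a longer set looked at after the values were known, and a match is letters in a window, not a shown binding site.

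Total counts ran from 10953338 to 16701599 per library, and 9141 genes passed the filter on low counts and were tested. The first principal component, with 75.3% of the variance, separated the groups, and the second, with 15.3%, set control 5 and cisplatin 4 and 6 apart from the other 5 libraries. Cisplatin 1 and 3 held 2 and 0 counts of the Y-linked gene Kdm5d, where the other libraries held 274 to 576, although the study describes male mice. Results of members and named partner genes are therefore also given without them where this changes a call or moves a fold change by over 1.5 times. Summed over the markers measured, 11 proximal tubule genes of a list of 12 held 32272 to 40498 CPM (read counts scaled to a common library depth) in controls and 952 to 3964 in cisplatin libraries, and 9 injured-tubule genes held 1370 to 1698 and 18495 to 39314. Spp1 was the largest part of the injured-tubule sum, at 900 to 1055 CPM in controls and 8665 to 23827 in cisplatin libraries. Of the 9 genes 8 were called higher, against 19.2% of all genes, and Vcam1 was not called. In whole kidney, fewer cells of a type and less RNA per cell cannot be told apart.

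In cisplatin kidneys, 25 of the 64 members tested were lower and 8 were higher, at an adjusted p under 0.05 and a log2 fold change of at least 1 in size. Over all genes tested, 15.7% were called lower and 19.2% higher. The median log2 fold change was -0.72 over the 64 members and 0.08 over all genes. In 35 members all 4 cisplatin libraries lay below all 4 controls and in 10 all lay above, so 70.3% of members had groups that did not overlap, against 46.3% of all genes. The genes called lower carry phosphate, glucose, lactate, sulfate, dicarboxylates, ascorbate, bicarbonate, salt, calcium and zinc. Those called higher were Slc2a1, Slc2a3, Slc2a6, Slc23a3, Slc8a2, Slc9a5, Slc39a4 and Slc39a14. Scaled by total counts alone, the median of all genes moved to 0.64 and that of the members to -0.14. With that scaling 12 members were higher and 19 lower. Slc2a4, Slc5a6, Slc9a9, Slc26a7, Slc39a8 and Slc41a2 lost their calls as lower, and Slc2a10, Slc4a2, Slc9a4 and Slc39a1 were called higher. Without cisplatin 6, 5 members were higher, since Slc2a3, Slc9a5 and Slc23a3 were then not called.

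**Figure D1:**
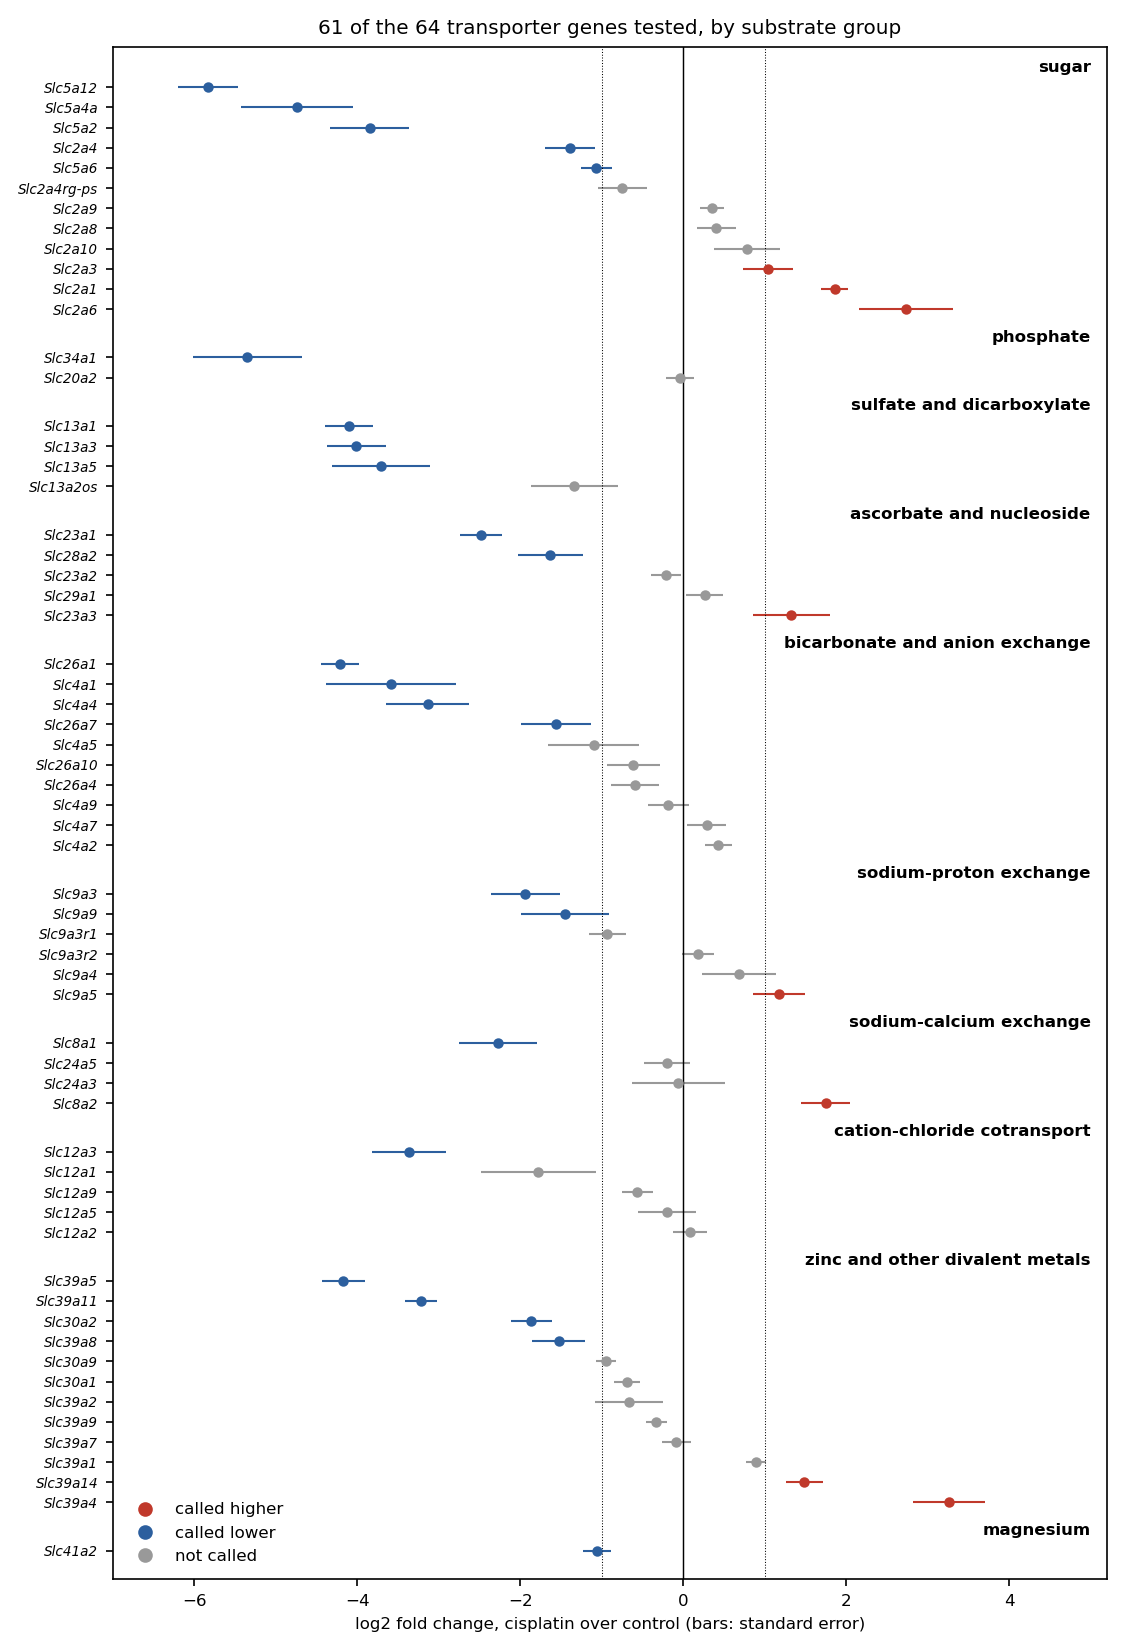
Log2 fold change (cisplatin over control) of 61 of the members tested, grouped by substrate, with standard errors (SE) as bars, dotted lines at a fold change of 1 on the log2 scale in either direction, and colour for the call. The 24 plotted genes called lower reach -5.83 for Slc5a12, and the 8 called higher reach 3.26 for Slc39a4.

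The members together took 1.92% to 2.35% of all counts in the control libraries and 0.469% to 0.641% in the cisplatin libraries. Slc34a1 alone gave 45.6% to 51.9% of the members' counts in controls and 1.98% to 16.0% in cisplatin kidneys. As levels per kilobase of exon, the control order began with Slc34a1 at 2820 CPM per kb, Slc9a3r1 at 306, Slc12a1 at 300.1, Slc13a3 at 293 and Slc5a2 at 201. In cisplatin kidneys it began with Slc9a3r1 at 160.3, Slc39a1 at 101, Slc2a1 at 93.4, Slc12a1 at 87.5 and Slc34a1 at 69.1. Slc2a1 stood at place 18 in controls and place 3 in cisplatin kidneys, and Slc39a14 moved from place 38 to place 10. Places follow group means, and neighbours could overlap in their library values. In the cisplatin order Slc12a1, at 60.3 to 1219 CPM, overlapped each of the others named. Slc34a1 also varied several-fold among the 4 cisplatin libraries, and Slc39a1 overlapped Slc2a1. In the control order Slc9a3r1, Slc12a1 and Slc13a3 overlapped.

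**Figure D2:**
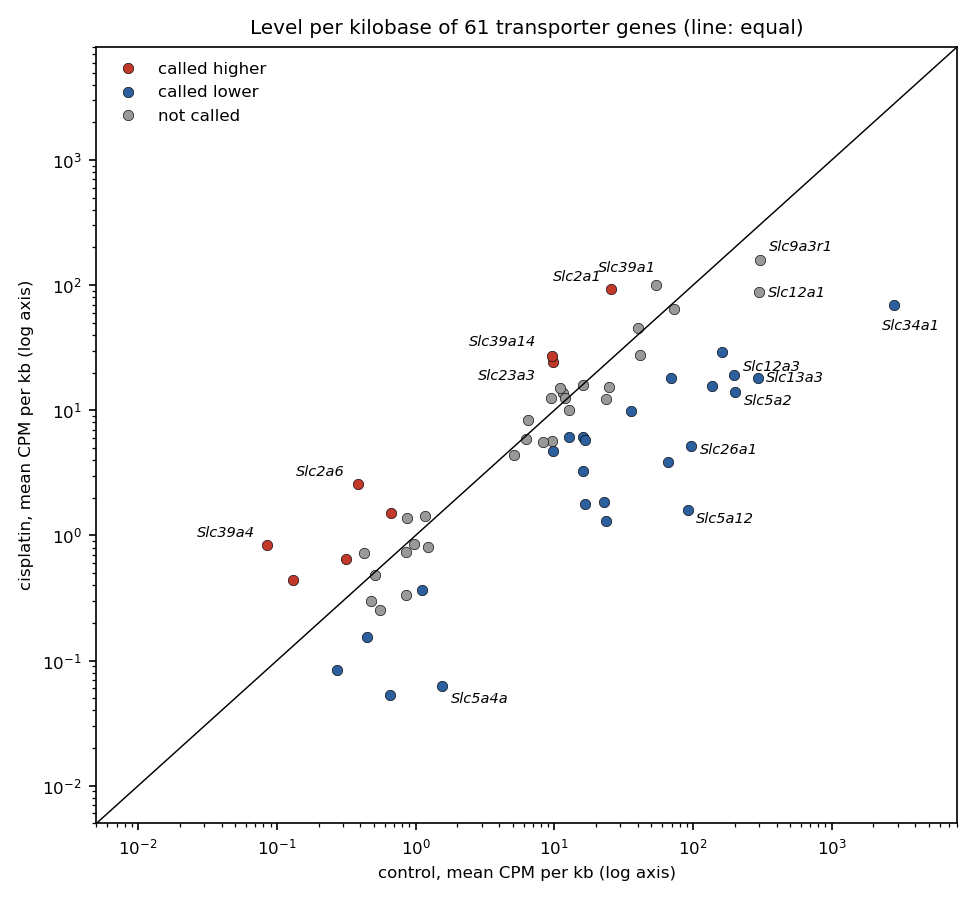
Mean level of 61 of the members in cisplatin (vertical) against control (horizontal), both in CPM per kilobase on log axes, with a line where they are equal. Slc34a1 lies farthest right, at 2820 in controls and 69.1 in cisplatin kidneys, and Slc2a1 lies above the line, at 25.8 and 93.4.

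Of the 2 phosphate carriers measured, Slc34a1 fell and Slc20a2 was not called. Slc34a1 (ENSMUSG00000021490, chromosome 13, 55398187 to 55415592, GRCm38) encodes NaPi-IIa, the main sodium-phosphate cotransporter of the proximal brush border. It had 13478, 10272, 14429.8 and 14557 CPM in control libraries 1, 2, 3 and 5 and 119, 94.6, 427 and 652 CPM in cisplatin libraries 1, 3, 4 and 6. Every cisplatin library lay far below every control, and cisplatin 4 and 6 lay above cisplatin 1 and 3. The means were 13184 ± 2000.1 and 323 ± 266 CPM (SD, n = 4 each), and the log2 fold change, with its standard error (SE), was -5.35 (SE 0.67, adjusted p = 0.000169), and without cisplatin 1 and 3 the value was -4.61. Of its exon bases, 11.7% overlap Pfn3 on the opposite strand, which had too few counts to be tested.

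Slc20a2 (PiT-2), a phosphate carrier found in most tissues, had 105, 95.01, 90.3 and 113 CPM in controls and 70.7, 96.8, 116 and 109 CPM in cisplatin libraries. These groups overlapped, and no change was called, with a log2 fold change of -0.04 and a 95% interval of -0.43 to 0.35 (adjusted p = 0.871). Scaled by total counts alone it was 0.51 and still not called. Within each library, the count of Slc34a1 divided by that of Slc20a2 ran from 108 to 159.8 in controls and from 0.977 to 5.98 in cisplatin kidneys, a ratio that library scaling does not touch. Among the partner genes of the phosphate hormone axis, 4 of the 7 tested were lower and 0 higher, against 15.7% and 19.2% of all genes. Kl, which encodes the FGF23 co-receptor Klotho, had 1773, 1584, 1999 and 1379 CPM in controls and 126, 139, 43.5 and 50.7 CPM after cisplatin (log2 fold change -4.23, adjusted p = 4.85e-05, and -5.16 without cisplatin 1 and 3). The receptor for parathyroid hormone, Pth1r, had 806, 668, 762 and 1383 CPM in controls and 105, 122, 92.8 and 96.3 CPM after cisplatin (log2 fold change -3.12, adjusted p = 1.75e-05). Both genes fell in every cisplatin library.

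**Figure D3:**
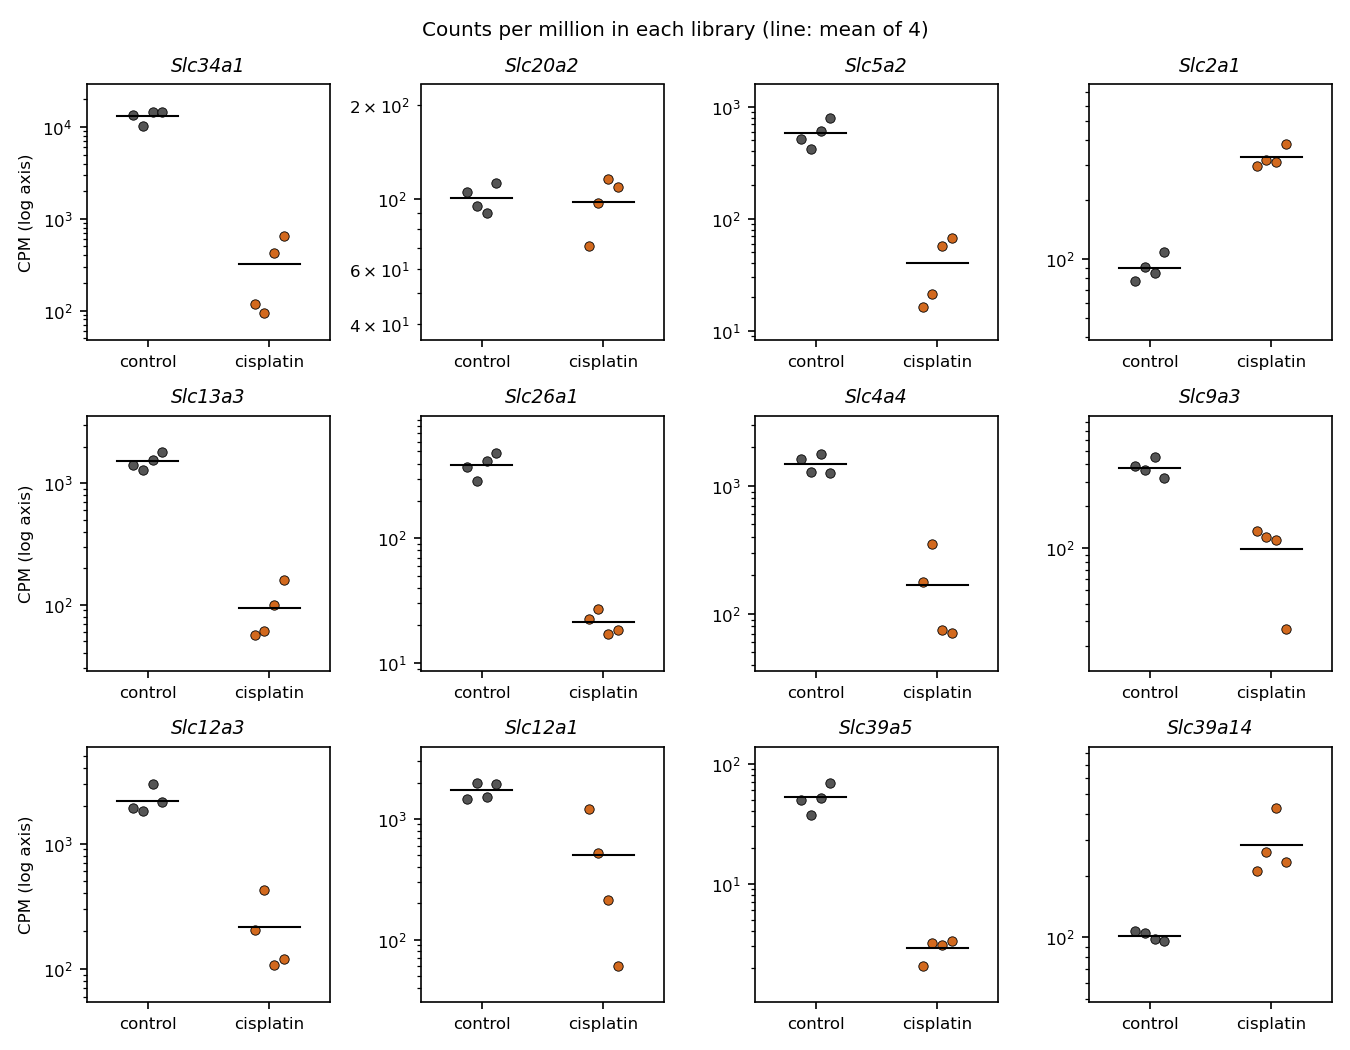
CPM of 12 members in each of the 4 control and 4 cisplatin libraries, each panel on its own log axis, with a line at the mean of each group. Slc20a2 overlaps between groups, Slc2a1 and Slc39a14 lie higher in all 4 cisplatin libraries, and the other 9 lie lower.

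Genes of the Slc2 and Slc5 families moved in both directions, with 5 of 12 lower and 3 higher, against 15.7% and 19.2% of all genes. Of the lower genes, Slc5a12 and Slc5a6 do not carry sugar. The sodium-coupled family Slc5 had 4 of 4 lower, and the facilitative family Slc2, counting the pseudogene, had 3 of 8 higher and 1 lower. Slc5a2 (ENSMUSG00000030781, chromosome 7, 128265657 to 128272430) encodes SGLT2, which reclaims most filtered glucose in the early proximal tubule. Its libraries held 516, 418, 609 and 790.2 CPM in controls and 16.4, 21.4, 56.9 and 67.6 CPM after cisplatin. All 4 cisplatin libraries lay below the controls, again with cisplatin 4 and 6 the higher pair, and the log2 fold change was -3.85 (SE 0.48, adjusted p = 0.000173). Without cisplatin 1 and 3 it was -3.22. BC017158, on the opposite strand and without a usable row, overlaps 20.6% of its exon bases.

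The largest fall of any member was in Slc5a12, which despite its family carries lactate, with 355, 373, 444 and 312 CPM in controls and 4.68, 11.5, 3.88 and 5.87 CPM in cisplatin libraries. The log2 fold change was -5.83 (SE 0.37, adjusted p = 3.71e-06) and the groups were far apart. Slc5a4a, a sugar-carrier relative of the sodium-glucose family, was scarce at 3.63, 3.75, 2.28 and 3.15 CPM in controls and 0.0455, 0, 0.0732 and 0.397 CPM after cisplatin (log2 fold change -4.74, and -3.74 without cisplatin 1 and 3), and its near copy Slc5a4b is in a row not used, so reads could be split between them. Slc5a6, the carrier of biotin and pantothenate, fell less, from 51.02 ± 6.87 to 24.4 ± 5.10 CPM (SD, n = 4, adjusted p = 0.00142). Its log2 fold change was -1.07, and without cisplatin 1 and 3 it was -0.86 and without cisplatin 3 alone it was -0.96, neither of them called.

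Slc2a1 (ENSMUSG00000028645, chromosome 4, 119108711 to 119137983) encodes GLUT1, a facilitative glucose carrier of the basolateral membrane and of many cell types. It stood at 77.3, 91.2, 84.6 and 108 CPM in controls and 296, 318, 312 and 384 CPM in cisplatin libraries. The lowest cisplatin library lay above the highest control, and the log2 fold change was 1.86 (SE 0.16, adjusted p = 2.35e-05). The ratio of Slc5a2 to Slc2a1 counts within a library ran from 4.58 to 7.31 in controls and from 0.0553 to 0.182 in cisplatin kidneys.

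Slc2a3 (GLUT3), known from neurons and blood cells, and Slc2a6 (GLUT6), known from leukocytes, rose from low levels. Slc2a3 had 3.01, 2.07, 2.58 and 1.42 CPM in controls and 4.73, 4.01, 4.17 and 5.79 CPM after cisplatin (log2 fold change 1.04, adjusted p = 0.0172), and it was not called without control 2, control 5 or cisplatin 6, at 0.99, 0.86 and 0.93. Slc2a6 had 0.886, 0.638, 0.607 and 2.83 CPM in controls and 6.004, 14.8, 7.69 and 4.68 CPM after cisplatin (log2 fold change 2.73, adjusted p = 0.00361), with control 5 above the other controls but below every cisplatin library. Summed over 9 leukocyte markers of a list of 16, controls held 101 to 169 CPM and cisplatin libraries 158 to 216, with 5 of the 9 higher and Ptprc, the pan-leukocyte marker CD45, lower at 31.3 and 11.4 CPM; the part of leukocytes in the values of these genes was not tested.

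The insulin-responsive carrier Slc2a4 (GLUT4) fell, with 43.8, 47.4, 57.9 and 73.4 CPM in controls and 29.5, 27.2, 16.98 and 11.2 CPM after cisplatin (log2 fold change -1.39, adjusted p = 0.00463). Scaled by total counts alone it was -0.79 and not called (adjusted p = 0.06). Slc2a9 (GLUT9), which carries urate, stood at 30.99, 34.2, 31.1 and 35.6 CPM in controls and 35.7, 38.99, 48.8 and 45.04 CPM after cisplatin, higher in every cisplatin library but not called (log2 fold change 0.35, adjusted p = 0.0803). Slc2a8, Slc2a10 and Slc2a4rg-ps were not called either, and their groups overlapped, though Slc2a4rg-ps was called lower at -1.01 without cisplatin 3 and at -1.34 without cisplatin 1 and 3. Of the 10 genes tested that assist sugar transport or handle glucose and fructose in the tubule, 8 were lower and 1 higher. Over all genes the shares were 15.7% and 19.2%. G6pc, the glucose-releasing phosphatase of gluconeogenesis, had 655, 554, 578 and 840.1 CPM in controls and 10.4, 15.9, 20.8 and 15.2 CPM after cisplatin (log2 fold change -5.40, adjusted p = 1.38e-06), and the brush-border scaffold Pdzk1 had a log2 fold change of -3.71 (adjusted p = 2.72e-06). Txnip, which restrains glucose uptake through GLUT1, rose from 518 ± 107 to 1231 ± 94.1 CPM (SD, n = 4, adjusted p = 0.000644).

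Of 4 Slc13 members tested, 3 were called lower, against 15.7% of all genes. These were the sulfate, dicarboxylate and citrate carriers, and the member not called was an antisense RNA. Slc13a3 (ENSMUSG00000018459, chromosome 2, 165405028 to 165473230) encodes NaDC3, the basolateral carrier that supplies dicarboxylates for organic anion exchange. It had 1429, 1298, 1569 and 1809 CPM in controls and 56.5, 61.3, 100.4 and 160.4 CPM in cisplatin libraries (log2 fold change -4.01, SE 0.36, adjusted p = 2.73e-05). Slc13a1, the sodium-sulfate cotransporter of the brush border, had 473, 449, 532 and 585 CPM in controls and 21.01, 46.6, 20.8 and 30.5 CPM after cisplatin (log2 fold change -4.10, adjusted p = 7.58e-06). The citrate carrier Slc13a5 was scarce in both groups and fell by 3.71 on the log2 scale (adjusted p = 0.000763), and its log2 fold change was -2.91 without cisplatin 1 and 3. None of Slc13a3, Slc13a1 and Slc13a5 overlapped between groups. The antisense RNA Slc13a2os, at 2.13, 1.99, 2.43 and 5.74 CPM in controls and 1.14, 1.81, 1.54 and 0.317 CPM after cisplatin, was not called (adjusted p = 0.06), but was without cisplatin 3 (adjusted p = 0.0472). Of its exon bases, 17.4% overlap Slc13a2, from which its reads could come.

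The 2 sulfate carriers of the proximal tubule, Slc13a1 on the brush border and Slc26a1 on the blood side, both fell. Slc26a1 (Sat1; chromosome 5, 108669878 to 108675569) had 372, 289.7, 419.8 and 487 CPM in controls and 22.5, 26.8, 17.1 and 18.2 CPM after cisplatin (log2 fold change -4.21, SE 0.24, adjusted p = 2.36e-06). The 4 cisplatin libraries lay close together here, and none came near a control.

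Ascorbate carriers split. Slc23a1 (SVCT1), which reclaims vitamin C in the proximal tubule, had 528, 612, 426 and 537 CPM in controls and 71.8, 74.02, 146 and 83.6 CPM in cisplatin libraries (log2 fold change -2.48, adjusted p = 6.23e-05), with cisplatin 4 the highest of its group. Slc23a2 (SVCT2), the widely expressed ascorbate carrier, had a log2 fold change of -0.21 and a 95% interval of -0.62 to 0.19. Slc23a3, a relative named SVCT3, was called higher at 15.9, 24.2, 9.25 and 35.2 CPM in controls and 29.5, 27.9, 83.4 and 71.4 CPM after cisplatin (log2 fold change 1.32, adjusted p = 0.0409). Its groups overlapped, however, since control 5 lay above cisplatin 1 and 3. The call was lost on leaving out control 1, 2 or 3 or cisplatin 4 or 6, at adjusted p from 0.0716 to 0.111. Of the nucleoside carriers, Slc28a2 fell from a low level, 1.15 ± 0.169 to 0.355 ± 0.166 CPM (SD, n = 4, adjusted p = 0.00743), and Slc29a1, the equilibrative carrier ENT1, was not called at 46.02 ± 10.04 and 55.1 ± 13.8 CPM (adjusted p = 0.363).

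Bicarbonate and anion exchange genes of the Slc4 and Slc26 families were lower in 4 of 10 tested and higher in 0. Over all genes, 15.7% were lower and 19.2% higher. The 4 include the sulfate carrier Slc26a1. Slc4a4 (ENSMUSG00000060961, chromosome 5, 88886818 to 89239653) encodes NBCe1, the exit route for bicarbonate from proximal tubule cells to blood. It had 1608, 1277, 1775 and 1259 CPM in controls and 177, 351, 74.5 and 70.9 CPM in cisplatin libraries. All cisplatin libraries were lower, cisplatin 3 the least so, with a log2 fold change of -3.14 (SE 0.51, adjusted p = 0.000768). Without cisplatin 1 and 3 it was -4.34.

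Slc4a1 (chromosome 11, 102348824 to 102366203) encodes AE1, the chloride-bicarbonate exchanger of acid-secreting intercalated cells and of red cells. It had 94.04, 104, 122 and 124 CPM in controls and 17.6, 15.1, 3.29 and 0.317 CPM after cisplatin (log2 fold change -3.59, SE 0.80, adjusted p = 0.00464). The fall was far deeper in cisplatin 4 and 6 than in 1 and 3, and without the latter pair the value was -5.89. The 4 erythroid markers measured of a list of 5 summed to 26.5, 4.95, 197 and 54.5 CPM in controls 1, 2, 3 and 5 and to 1.46, 0.825, 8.78 and 12.5 in cisplatin 1, 3, 4 and 6; their part in the result was not tested.

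Slc26a4 and Slc4a9, anion exchangers of base-secreting intercalated cells, were not called. Slc26a4 (pendrin) had 115, 109.5, 151 and 142 CPM in controls and 105, 119, 78.7 and 40.7 CPM after cisplatin (log2 fold change -0.59, 95% interval -1.25 to 0.06), and without cisplatin 1 and 3 it was called lower at -1.10 (adjusted p = 0.0113). Slc4a9 (AE4) had 179.6, 166, 273 and 233 CPM in controls and 202, 262, 162 and 124 CPM after cisplatin (log2 fold change -0.18, 95% interval -0.75 to 0.38). The groups overlapped for both genes. The 2 intercalated cell markers measured of a list of 7 summed to 80.0 to 148 CPM in controls and 66.4 to 155 in cisplatin libraries. Slc26a7, an anion exchanger of acid-secreting intercalated cells, fell from 6.01 ± 1.47 to 1.99 ± 1.24 CPM (SD, n = 4, adjusted p = 0.0136). Its log2 fold change was -1.56, and -2.39 without cisplatin 1 and 3. Scaled by total counts alone it was -0.97 and not called (adjusted p = 0.0951).

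Slc4a2 (AE2), the housekeeping anion exchanger, had 80.7, 80.7, 90.5 and 117 CPM in controls and 139, 129, 118 and 111 CPM after cisplatin, with only cisplatin 6 below the highest control. Its log2 fold change of 0.43 passed the adjusted p (0.0497) but not the size of 1. Scaled by total counts alone it was 1.01 and was called. Fastk, on the opposite strand over 13.7% of its exon bases with Gm22333, had a log2 fold change of -0.26 and was not called. The ratio of Slc4a4 to Slc4a2 counts within a library ran from 10.8 to 19.9 in controls and from 0.629 to 2.71 in cisplatin kidneys. Slc4a7, a sodium-bicarbonate cotransporter, was not called (log2 fold change 0.29, adjusted p = 0.349). Among 7 partner genes of bicarbonate and proton handling tested, 4 were lower and 0 higher, against 15.7% and 19.2% of all genes. The membrane-bound carbonic anhydrases Car4 and Car12 had log2 fold changes of -4.35 and -2.29 (adjusted p = 2.61e-06 and 0.000335), Car4 with 335, 279, 348 and 352 CPM in controls and 21.9, 10.2, 15.2 and 17.05 CPM after cisplatin. Car12 was -2.93 without cisplatin 1 and 3.

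Of the 8 genes tested in the Slc9 family, 6 are sodium-proton exchangers. Of these exchangers 2 were lower and 1 higher, against 15.7% and 19.2% of all genes. Slc9a3 (ENSMUSG00000036123, chromosome 13, 74121457 to 74169442) encodes NHE3, the apical exchanger through which proximal tubule cells take up sodium and secrete acid. It had 389, 362, 449 and 317 CPM in controls and 134, 121, 115 and 26.2 CPM in cisplatin libraries, with cisplatin 6 far below the rest of its group. The log2 fold change was -1.94 (SE 0.42, adjusted p = 0.00402).

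Slc9a3r1 and Slc9a3r2 are not carriers but the scaffolds NHERF1 and NHERF2, which hold NHE3 and NaPi-IIa at the membrane and match by name. Slc9a3r1 had 526, 516, 573 and 739 CPM in controls and 247, 232, 408 and 347 CPM after cisplatin, a log2 fold change of -0.93 that passed the adjusted p (0.00693) but not the size of 1, and it was -1.10 and called without cisplatin 4. Slc9a3r2 did not pass either (log2 fold change 0.18, adjusted p = 0.47). The rarer exchanger Slc9a5 was higher in every cisplatin library, at 3.98, 3.91, 3.19 and 2.83 CPM in controls and 6.28, 7.37, 5.42 and 12.4 CPM after cisplatin (log2 fold change 1.17, adjusted p = 0.0123), and without cisplatin 6 the value was 0.87. Slc9a9, an endosomal exchanger, was called lower at 2.53 ± 0.509 and 0.883 ± 0.719 CPM (SD, n = 4, adjusted p = 0.0481), and lost its call in each of 7 fits that left out 1 library, at adjusted p from 0.0553 to 0.106. Without cisplatin 1 and 3 together it was called, at -3.01. Slc9a4 (NHE4) was not called, at 3.93 ± 1.27 and 6.28 ± 3.61 CPM, with a log2 fold change of 0.69 that was -0.31 without cisplatin 1 and 3.

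**Figure D4:**
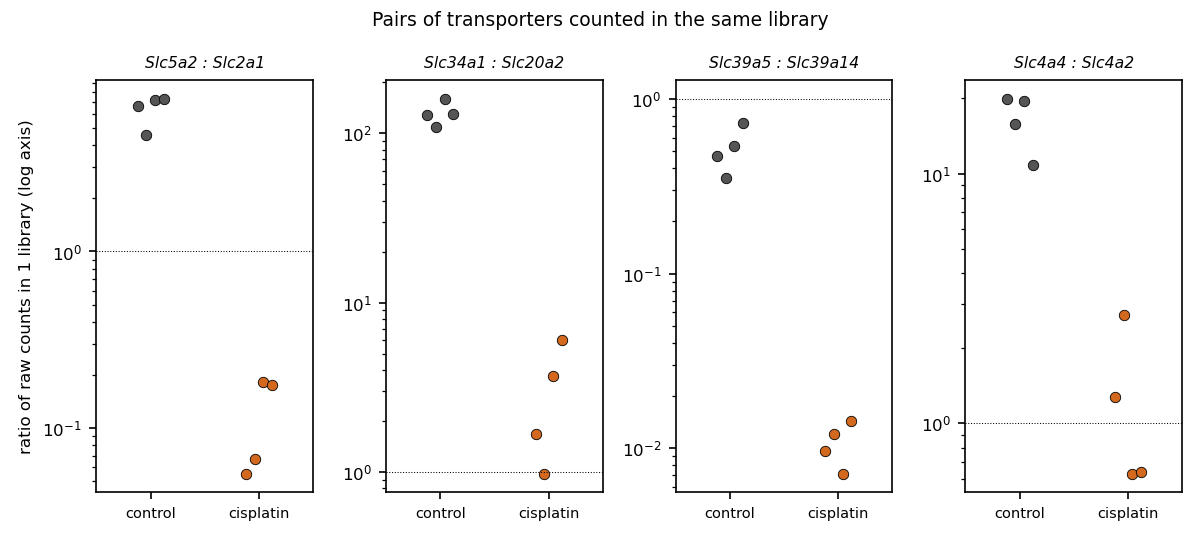
Ratio of the raw counts of 4 pairs of members within each library, on log axes, with a dotted line at 1; the ratio compares libraries and not the levels of the genes, since lengths differ. In all 4 pairs every cisplatin library lies below every control, as for Slc34a1 to Slc20a2, 108 to 159.8 in controls and 0.977 to 5.98 in cisplatin kidneys. The pairs were picked after seeing their values, so that they all point the same way is no separate result.

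Salt carriers of the Slc12 family were lower in 2 of 6 and higher in 0, against 15.7% and 19.2% of all genes. Slc12a3 (ENSMUSG00000031766, chromosome 8, 94329201 to 94366214) encodes NCC, the thiazide-sensitive cotransporter of the distal convoluted tubule. It had 1909.6, 1808, 2973 and 2127 CPM in controls and 205, 423, 108 and 121 CPM in cisplatin libraries. The groups lay far apart, with a log2 fold change of -3.36 (SE 0.45, adjusted p = 0.000265), and without cisplatin 1 and 3 it was -4.26.

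Slc12a1 (chromosome 2, 125152505 to 125230002) encodes NKCC2, the loop-diuretic target of the thick ascending limb. It had 1448, 1988, 1523 and 1959 CPM in controls and 1219, 524, 214 and 60.3 CPM after cisplatin. All 4 cisplatin libraries lay below the controls, but they differed widely from one another, and no change was called (log2 fold change -1.78, SE 0.70, adjusted p = 0.0602). Without cisplatin 1 and 3 the log2 fold change was -3.64 and called (adjusted p = 0.000815). With cisplatin 1 alone left out it was -2.71 and called (adjusted p = 0.00672), and without cisplatin 6 it was -1.40 and called (adjusted p = 0.0485). DESeq2 on all 8 libraries called it too (adjusted p = 0.0090). The 4 thick ascending limb markers measured of a list of 8 summed to 2903, 1560, 820 and 331 CPM in cisplatin 1, 3, 4 and 6, against 5591 to 9923 in controls. The sum had the same order as Slc12a1, but most of it was Umod, at 2682, 1437, 747 and 254 CPM. Ptger3 and Tmem207 had that order too. Egf did not, at 148, 75.1, 53.3 and 67.1 CPM, against a mean of 2335 in controls. The part of these markers in the result was not tested.

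Slc12a2 (NKCC1), the secretory cotransporter found in many cells, had a log2 fold change of 0.08 and a 95% interval of -0.38 to 0.55. Of 8 genes tested that regulate salt transport or handle calcium, 2 were lower and 0 higher, against 15.7% and 19.2% of all genes. Calb1, S100g, Atp2b1 and Atp2b4 are the calcium genes among them. Wnk1, a kinase upstream of NCC and NKCC2, had 680.4, 697, 970.3 and 595 CPM in controls and 319, 416, 175 and 198 CPM after cisplatin (log2 fold change -1.41, adjusted p = 0.00337). Calb1, the calcium-binding protein of the distal tubule, had 561, 491, 727 and 421 CPM in controls and 320.0, 247, 92.5 and 98.3 CPM after cisplatin (log2 fold change -1.54, adjusted p = 0.011, and -2.52 without cisplatin 1 and 3). Scaled by total counts alone, Wnk1 was -0.82 (adjusted p = 0.0447) and Calb1 -0.93 (adjusted p = 0.0864), neither of them called.

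Among sodium-calcium exchangers, Slc8a1 (NCX1), which returns calcium to blood in the distal tubule, had 34.98, 40.2, 65.8 and 47.1 CPM in controls and 12.6, 17.9, 4.10 and 4.04 CPM after cisplatin (log2 fold change -2.27, adjusted p = 0.00356), and without cisplatin 1 and 3 the value was -3.52. Slc8a2 (NCX2), best known from brain, rose from 0.797, 0.558, 0.607 and 0.786 CPM in controls to 2.41, 2.58, 1.76 and 2.54 CPM after cisplatin (log2 fold change 1.75, adjusted p = 0.00115). Neither overlapped between groups, and Slc8a2 stayed scarce in every library. Slc24a3 and Slc24a5 were not called.

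Zinc carriers were lower in 4 of 12, against 15.7% of all genes, and higher in 2, or 16.7%, near the 19.2% of all genes. The Slc39 family had 3 of 9 lower and 2 higher. Slc39a5 (ZIP5; chromosome 10, 128395931 to 128401229), a basolateral zinc importer of intestine, pancreas and kidney, had 50.3, 37.1, 52.3 and 69.6 CPM in controls and 2.05, 3.19, 3.07 and 3.33 CPM in cisplatin libraries (log2 fold change -4.17, SE 0.26, adjusted p = 3.36e-06). Slc39a11 (ZIP11) fell from 53.1, 55.04, 48.1 and 66.6 CPM in controls to 4.87, 5.83, 5.71 and 7.53 CPM after cisplatin (log2 fold change -3.22, adjusted p = 3.13e-06). Slc39a8 (ZIP8), which carries zinc and manganese, fell by 1.53 on the log2 scale (adjusted p = 0.00394). Scaled by total counts alone, its log2 fold change was -0.99 and not called. In none of Slc39a5, Slc39a11 and Slc39a8 did a cisplatin library reach a control.

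Slc39a14 (ZIP14; chromosome 14, 70303469 to 70351425), an importer of zinc, iron and manganese that inflammatory signals raise in liver, had 107, 105, 97.8 and 96.2 CPM in controls and 212, 263, 429 and 233 CPM after cisplatin. Every cisplatin library lay above every control and cisplatin 4 was the highest, with a log2 fold change of 1.48 (SE 0.23, adjusted p = 0.000531). Slc39a4 (ZIP4; chromosome 15, 76612383 to 76617384), the zinc uptake carrier of the gut, rose from 4, 3, 1 and 5 counts in the controls to 44, 40, 46 and 36 in the cisplatin libraries. Its log2 fold change was 3.26 (adjusted p = 0.000295) and the groups did not overlap, though the controls were near the limit of 3 counts, 0.228 to 0.266 CPM. Slc39a1 (ZIP1), a broadly expressed importer, had 132, 124, 121 and 135 CPM in controls and 239.5, 245, 224 and 245 CPM after cisplatin, a narrow spread in both groups. Its log2 fold change of 0.90 passed the adjusted p (0.000311) but not the size of 1, and scaled by total counts alone it was 1.46. Within libraries, the ratio of Slc39a5 to Slc39a14 counts ran from 0.353 to 0.724 in controls and from 0.00717 to 0.0143 in cisplatin kidneys.

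The zinc exporter family Slc30 had 1 of 3 tested genes lower, against 15.7% of all genes. Slc30a2 (ZnT2), which loads zinc into vesicles, had 128, 85.2, 141 and 157 CPM in controls and 25.2, 43.1, 44.6 and 27.5 CPM after cisplatin (log2 fold change -1.86, adjusted p = 0.000303). Slc30a1 (ZnT1), the exporter of the plasma membrane, stood at 134, 149.7, 97.9 and 137 CPM in controls and 84.01, 76.5, 88.6 and 72.3 CPM after cisplatin, below every control (log2 fold change -0.69, adjusted p = 0.00613) and short of the size of 1. Slc30a9 had a log2 fold change of -0.95 (adjusted p = 0.000244). Slc41a2, a magnesium carrier, fell from 60.7, 60.9, 45.2 and 43.95 CPM in controls to 23.6, 29.5, 23.9 and 23.9 CPM after cisplatin (log2 fold change -1.06, adjusted p = 0.000796), and was not called without control 1 or control 2, at -0.996 and -0.992.

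Of 14 zinc and iron handling genes tested, 5 were higher and 2 lower, against 19.2% and 15.7% of all genes. The zinc-binding metallothioneins led them, with Mt1 at 112, 79.5, 87.97 and 116 CPM in controls and 1321, 1507, 2838 and 1457 CPM after cisplatin (log2 fold change 4.17, adjusted p = 8.73e-06) and Mt2 at 0.354, 0.0798, 0.303 and 0.550 CPM in controls and 10.8, 7.20, 26.6 and 10.9 CPM after cisplatin (log2 fold change 5.39, adjusted p = 8.3e-05). Mt2 was near the limit of 3 counts in controls. Mt3, the transferrin gene Trf and the iron reductase gene Cybrd1 rose as well. Aco1, which encodes iron regulatory protein 1, fell from 726 ± 101 to 194 ± 10.8 CPM (SD, n = 4, adjusted p = 1.78e-05), and the endosomal ferrireductase gene Steap3 from 27.9 ± 4.80 to 11.7 ± 2.63 CPM (adjusted p = 0.00115). The log2 fold change of Steap3 was -1.26, and scaled by total counts alone it was -0.68 and not called. The zinc sensor gene Mtf1 had a log2 fold change of 0.41 (adjusted p = 0.0284).

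Cisplatin 4 and 6 both lay above cisplatin 1 and 3 in 15 of the 64 members tested, against 36.7% of all genes tested, and both below in 26, against 36.2%. Among the 25 members called lower these counts were 8 and 10. Slc34a1 averaged 539 CPM in cisplatin 4 and 6 and 107 in cisplatin 1 and 3, a ratio of 5.06, and Slc5a2 and Slc13a3 had ratios of 3.30 and 2.21. The order was opposite for Slc12a1, with 137 CPM in cisplatin 4 and 6 and 871 in 1 and 3, and for Slc4a1, Slc8a1, Slc4a4 and Slc12a3, which were 9.06, 3.74, 3.63 and 2.74 times higher in 1 and 3. Proximal tubule markers summed to 3187 and 3964 CPM in cisplatin 4 and 6 and to 952 and 1322 in 1 and 3, and thick ascending limb markers to 820 and 331 and to 2903 and 1560; their part in these differences was not tested. Each pair is 2 libraries with no label that sets them apart, so no test was made. The pairs do differ in Y-linked counts, with Kdm5d at 2 and 0 counts in cisplatin 1 and 3 and 387 and 285 in 4 and 6. What lies behind that split cannot be told apart from these differences and was not tested. Slc39a1, Slc30a9 and Slc2a1 differed by at most 1.13 times between the pairs.

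**Figure D5:**
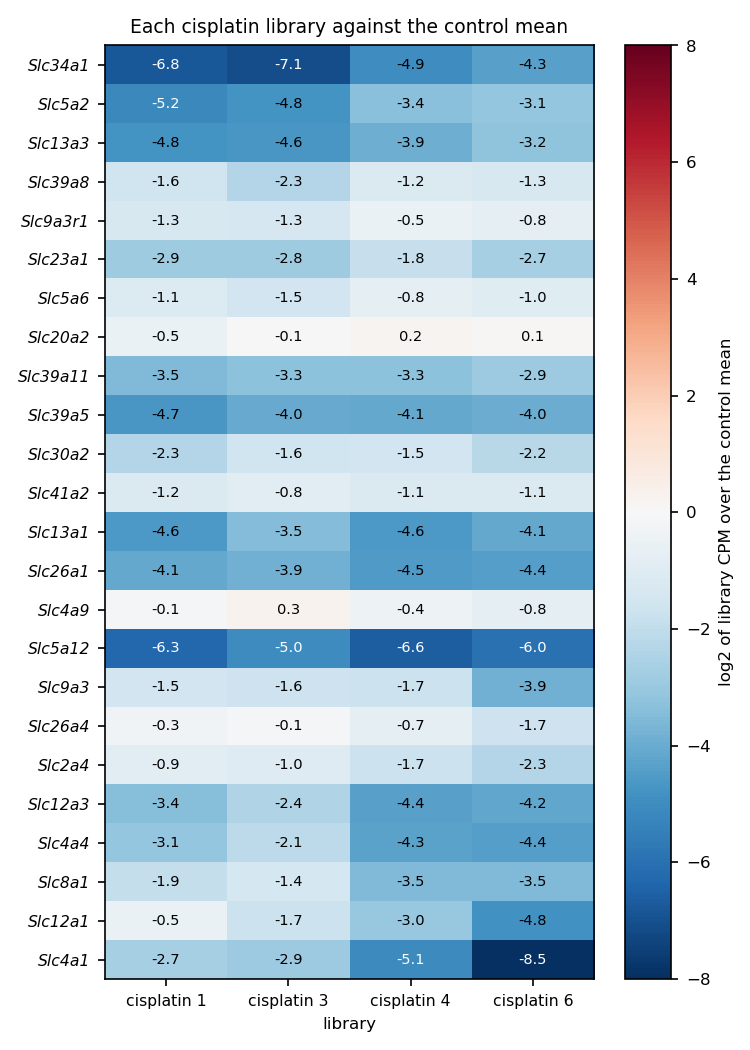
Log2 of the CPM in each cisplatin library over the mean of the 4 controls, for 19 members called lower with a mean of 10 CPM or more in controls and 5 not called, ordered by the ratio of cisplatin 4 and 6 to 1 and 3, with each value printed. Slc34a1, at the top, is lowest in cisplatin 1 and 3, and Slc4a1, at the bottom, is lowest in cisplatin 4 and 6.

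Without cisplatin 1 and 3, 8 members were higher and 29 lower, against 21.4% and 20.5% of the 9261 genes then tested. Of the members called with all libraries, Slc5a6 alone lost its call. Slc12a1, Slc26a4, Slc2a4rg-ps and Slc4a5, a sodium-bicarbonate cotransporter, were among the 5 members called lower there and not with all libraries, and Slc4a5 went from -1.10 to -2.23 (adjusted p = 0.015). The 4 members that were not tested, Slc28a3, Slc26a5, Slc24a2 and Slc30a10, had 0 counts in every control, which allows up to 0.266 CPM, and at most 2 counts in any cisplatin library. Of the 31 members tested and not called, 7 passed the adjusted p without the size of 1, Slc39a1, Slc4a2, Slc9a3r1, Slc30a1, Slc30a9 and Slc12a9 among them.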

How the data were processed

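Whole-kidney poly(A) RNA of 4 control and 4 cisplatin-treated mice was sequenced with paired reads of 150 bp. Per the paper's methods and the submitters' processing notes, which name fastp, HISAT2 and GRCm38, reads were aligned to that mouse build, and the authors deposited raw counts per gene without normalization. The counting tool and its strand setting are not given in the sources used here, so it is not known whether reads of genes overlapping on opposite strands were told apart. The labels and the methods name different library kits. Of 53715 rows, 17835 held 10 values for 8 named libraries and were not used, nor were the 2 unnamed extra value columns.

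Groups and replicate numbers came from the sample labels. Counts were tested in R 4.3.3 with edgeR 4.0.16 (default expression filter, TMM normalization, quasi-likelihood F test, no covariate), with Benjamini-Hochberg adjustment over all 9141 genes tested. Calls needed an adjusted p under 0.05 together with a log2 fold change of 1 or more in either direction, thresholds taken from the study, which used DESeq2. The standard error was the absolute log2 fold change divided by the square root of F. CPM are scaled by TMM, 3 counts correspond to 0.136 to 0.266 CPM, and this limit covers counting error only. With 4 mice per group, p-values measure the spread between these mice. No 2 libraries of a group agreed within sampling noise. The procedure was also run on simulated counts, but the outcome is not given here, so no error rate is claimed from it. Alternatives were other normalizations, filters, tools (DESeq2 1.42.0, glmTreat), a replicate block, a covariate for the second principal component, and libraries left out.

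The members, partner genes and marker lists were chosen with earlier results of these data known, so no test was made over a list. Named were, per substrate group and direction, the 3 called members with the largest fold change and at least 1 CPM in a group, kidney transporters listed in advance whatever their values, and per partner list and direction the 2 largest called genes. Slc2a4rg-ps, Slc4a5, Slc5a6, Slc9a3r2, Slc12a9, Slc13a2os, Slc23a2, Slc30a9, Slc39a1, Mt3, Mtf1, Trf and Cybrd1, the within-library ratios and the motifs were picked after seeing their values. Gene positions and exon overlaps are from the count table and GENCODE M21, which gave the same start, end and strand for 64 of the 68 members, and promoters are from RefSeq. The values of 3 members are not reported here, though the counts of members include them.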

Additional observations from a re-analysis of the deposited data

Results flagged for a closer look

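Of 112 groups of 4 libraries tested among the named genes, 5 held a library far from its group by Dixon's test at the 95% level, which chance gives in about 1 of 20 groups. Slc4a7 stood at 12.7 CPM in control 5, with the other controls at 19.0 to 20.1. Slc2a6 stood at 2.83 CPM in control 5, with the others at 0.607 to 0.886. Among cisplatin libraries, Slc23a1 stood at 146 CPM in cisplatin 4 (others 71.8 to 83.6), Mt1 at 2838 CPM in cisplatin 4 (others 1321 to 1507) and Slc41a2 at 29.5 CPM in cisplatin 3 (others 23.6 to 23.9). None of these libraries moved into the range of the other group.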

How the results depend on the processing

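The main counts were 8 members called higher and 25 called lower, and 6 partner genes called higher and 20 lower. For members called higher, requiring at least 10 counts in every library gave 5 (of 53 tested) and testing against a log2 fold change of 1 (glmTreat) gave 5. For partner genes called higher, the 10-count filter gave 3. For partner genes called lower, glmTreat and scaling by total library size each gave 13. Over all genes, that scaling gave 3174 higher and 803 lower, against 1754 and 1434 with TMM. With 1 library left out, 5 to 8 members were higher (5 without cisplatin 6) and 23 to 27 lower, and partner genes had 6 higher in each of these fits and 19 to 21 lower. Without cisplatin 1 and 3 together, 6 partner genes were higher and 26 lower.

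Numbers 1 and 3 are shared by control and cisplatin libraries, but the kidneys are from different mice, and the deviations of same-numbered libraries correlated at 0.22 and 0.23, against -0.43 to 0.47 over the other pairs. Fitting the replicate number as a block, which leaves 2 pairs to set the fold changes, gave 7 members higher and 22 lower, and 5 partner genes higher and 19 lower.

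Members that were not called changed sign. Slc20a2 was 0.0199 with upper-quartile scaling, 0.51 with total library size, 0.17 without cisplatin 1 and 3, 0.0045 without control 5, and -0.13 to 0.0889 as each cisplatin library was left out (0.0889 without cisplatin 1). Slc4a9 was 0.40 with total library size and 0.0575 with the block. Without cisplatin 1 and 3, Slc4a7 was -0.0496, Slc9a4 -0.31 (0.69 with all libraries), Slc29a1 -0.0764 and Slc12a2 -0.27. Slc12a2 was also -0.0012 without control 5, -0.0139 without cisplatin 1 and -0.0675 without cisplatin 3, and 0.20 without cisplatin 6. The cause of these changes was not tested. For single named genes, 1073 values kept direction and side of the threshold, 48 lost and 16 gained a call, and 14 changed sign. Depth limits the genes that rose from low counts: Slc39a4, Slc2a6 and Slc8a2 had fewer than 10 counts in at least one control and were not tested under the 10-count filter.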
